A study of Mus musculus with 8 samples.

Results

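The genes of the mitochondrial ribosome's proteins were followed across blood monocytes of mice, in 76 genes of the 18193 measured. They were taken by name, as every gene whose annotated symbol starts with Mrpl (large subunit) or Mrps (small subunit) and a number, on probe sets that carry 1 symbol. Of these, 47 were large subunit genes and 29 small subunit genes. A gene with several probe sets was represented by its brightest one on average, and all 76 genes had a mean above the background level of 6.98 log2 units. Mrpl30 and Mrpl53 lay only on probe sets shared with another gene and were not used here.

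RNA was measured on 8 Affymetrix mouse expression arrays, 2 biological replicates in each of 4 groups. All groups came from male C57BL/6 mice given fluorescent latex beads of 1 µm intravenously. Blood monocytes were sorted 4 days later into Gr1hi cells without beads, Gr1hi cells with beads, Gr1lo cells without beads and Gr1lo cells with beads. Gr1hi cells are the classical, Ly-6C high monocytes, and Gr1lo cells the nonclassical, Ly-6C low ones. Beads are taken up by phagocytosis, so the bead groups separate cells by whether they carried a particle. Clodronate liposomes, which deplete phagocytes, were given 3 days before the beads. The series text names no subset for the liposomes, whereas the treatment protocol uses them to label classical cells and leaves them out for nonclassical cells. Under the second reading the subsets also differ in this pretreatment, and the effects of subset and liposomes on the values below cannot be told apart. The number of animals behind each array is not given in the sources used here.

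Mitochondria carry their own ribosome, which translates the few proteins encoded in mitochondrial DNA, all of them subunits of the respiratory chain and ATP synthase. Its RNAs are made inside the organelle, but its proteins are encoded in the nucleus, made in the cytosol and imported. The small subunit binds the messenger and reads the code, and the large subunit joins the amino acids and holds the tunnel through which the new chain leaves. Many of its proteins descend from those of bacterial ribosomes, and others have no counterpart there. Classical monocytes leave the bone marrow and can convert in the blood to nonclassical monocytes, which patrol the vessel wall.

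Median values per array ran from 6.12 to 6.19 log2 units, and 8615 to 8865 genes per array were above background. The labels of the subsets were borne out by their markers: all 4 measured classical markers were lower in Gr1lo cells and all 8 nonclassical markers were higher. Of genes above background, 30.7% were called lower and 25.5% higher. Within Gr1lo cells, 3 of the 4 classical markers were called lower with beads (limma, adjusted p under 0.05), where 0.143% of all genes were. The median difference over the 4 was -2.23. The summed level of the 4 was 13.73 to 13.82 without and 12.34 to 12.48 with beads. In Gr1hi cells 0 of them were called with beads (median -0.39). The part of this difference in the ribosomal results was not tested. The Gr1lo array without beads of replicate 1 stood apart in a summed list of platelet markers, at 11.77 log2 units against 10.14 to 10.54 on the other 7 arrays. The platelet gene Pf4 carried this sum, with an SD of 2.59 between that array and its partner. The same array was above its partner in summed macrophage markers, at 14.03 against 13.11, and cell cycle markers, at 9.26 against 8.01, and results are given below with and without it. Control RNAs added during labelling also differed between the groups. For Gr1hi arrays the poly-A controls averaged 7.93 ± 0.26 (SD, n = 2) without and 9.65 ± 0.28 with beads. For Gr1lo arrays the averages were 8.98 ± 0.41 without and 10.45 ± 0.01 with beads. They were thus 0.92 log2 units higher in Gr1lo than in Gr1hi arrays, and higher with beads in both subsets. The hybridization controls averaged 11.13 ± 0.08 without and 11.32 ± 0.003 with beads on Gr1hi arrays. On Gr1lo arrays they averaged 10.94 ± 0.22 without and 12.01 ± 0.24 with beads. The part of either kind of control difference in the results was not tested. These are bulk samples of sorted cells on a scale that sets each array to the same distribution, so fewer cells with a transcript and less of it per cell cannot be told apart.

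Most mitochondrial ribosomal protein genes were lower in Gr1lo than in Gr1hi monocytes. Averaged over bead state, 60 of 76 fell (limma, adjusted p under 0.05 by Benjamini-Hochberg over all 18193 genes), where 20.9% of all genes and 30.7% of genes above background were called lower. Mrpl14 was the one that rose, where 14.8% of all genes and 25.5% of genes above background were called higher. The median difference of the 76 genes was -0.40 log2 units, or 1.32-fold lower, against -0.05 for all genes and -0.04 for genes above background. The difference was below 0 in 69 of 76 genes, against 61.3% of all genes and 54.5% of those above background. In 63 genes all 4 Gr1lo arrays lay below all 4 Gr1hi arrays, which held for 19.7% of all genes and 28.7% of genes above background. In 2 genes, Mrpl14 and Mrpl55, all Gr1lo arrays lay above, which held for 13.9% of all genes and 24.6% of those above background. Without the Gr1lo array of replicate 1 with the higher platelet sum, 60 genes were called lower and 1 higher.

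**Figure D1:**
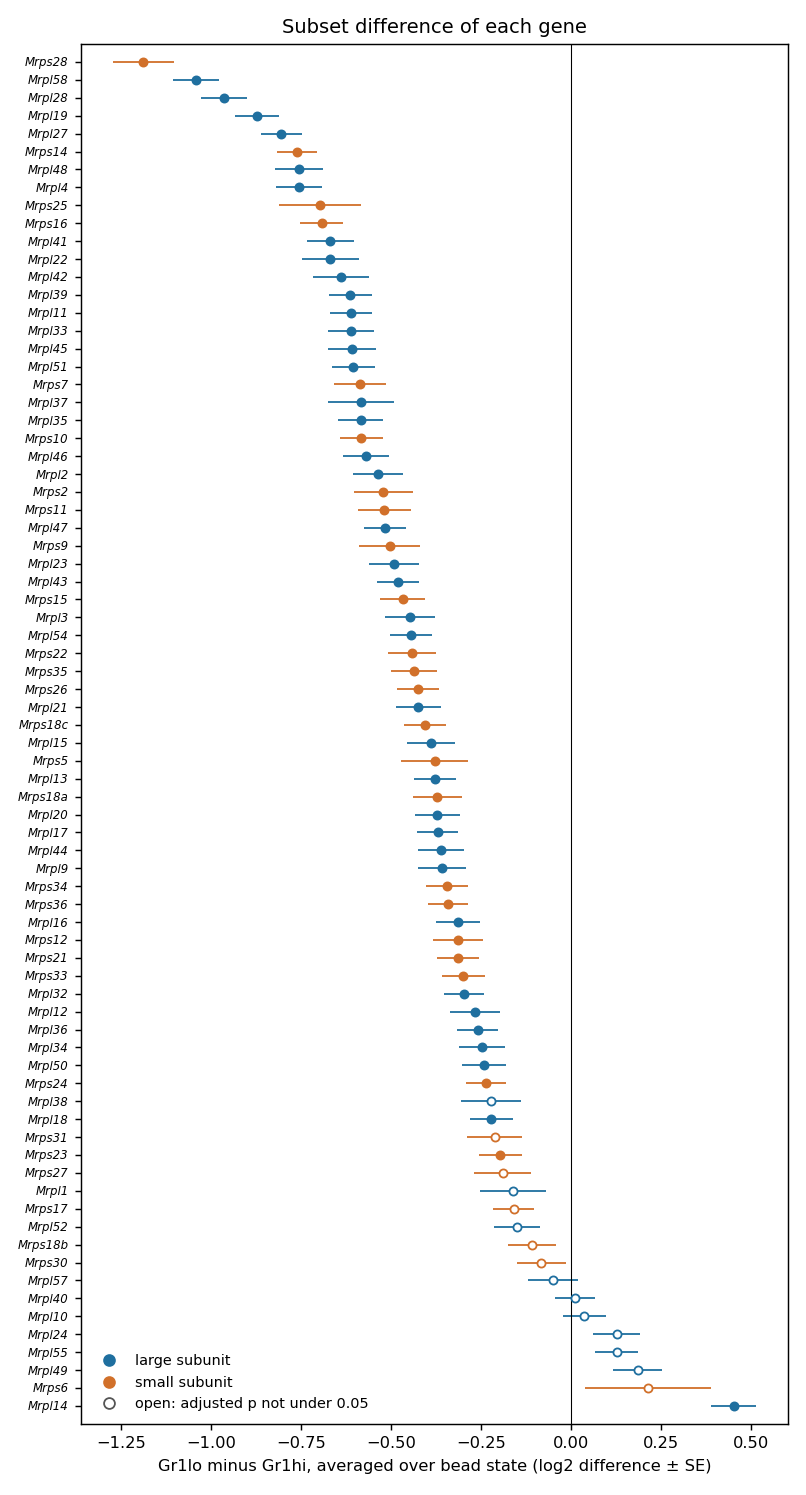
The difference between Gr1lo and Gr1hi monocytes, averaged over bead state, for each of the 76 genes, as a log2 difference with its moderated standard error from limma. Blue points are large subunit genes, orange points small subunit genes, and open points did not pass an adjusted p of 0.05; the points run from -1.19 for Mrps28 to 0.45 for Mrpl14.

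Genes of both subunits fell. Of the large subunit genes, 37 of 47 fell and 1 rose, with a median of -0.42; of the small subunit genes, 23 of 29 fell and none rose, with a median of -0.38. These are 78.7% and 79.3% of the genes of each subunit. As deviations from each gene's mean over the 8 arrays, the large subunit medians were 0.17 and 0.21 in Gr1hi cells without beads and 0.21 and 0.24 with beads. They were -0.14 and -0.21 in Gr1lo cells without beads and -0.23 and -0.25 with beads. The small subunit medians were 0.23, 0.19, 0.18 and 0.15 on the 4 Gr1hi arrays and -0.12, -0.19, -0.21 and -0.24 on the 4 Gr1lo arrays, in the same order. For both subunits every Gr1hi array was above every Gr1lo array. In Gr1lo cells both bead arrays lay below both arrays without beads for each subunit. In Gr1hi cells this held for the small subunit, while the large subunit medians overlapped. The medians of genes above background were also lower on the bead arrays in both subsets.

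**Figure D2:**
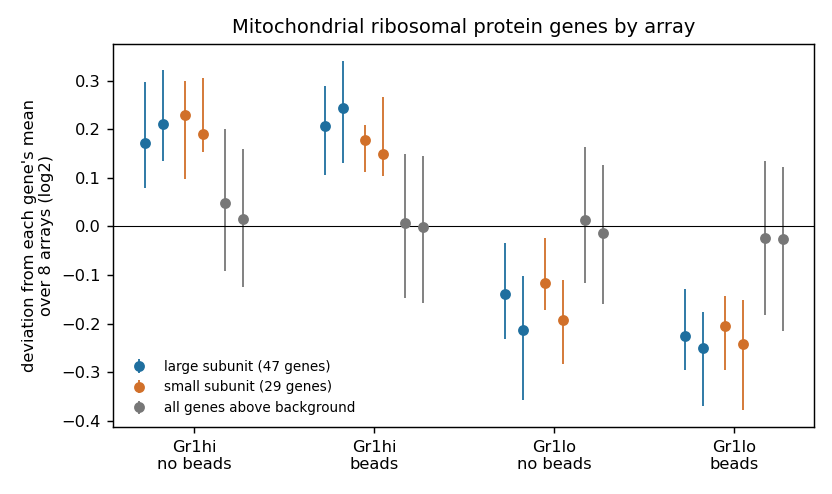
Deviation of the genes from their own mean over the 8 arrays, in log2 units, for each array. Points are medians over the 47 large subunit genes (blue), the 29 small subunit genes (orange) and all genes above background (grey), and lines span the quartiles; the ribosomal medians lie above 0 on the Gr1hi arrays and below 0 on the Gr1lo arrays, while the grey medians stay between -0.03 and 0.05.

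The gene with the greatest fall was Mrps28, which encodes a small subunit protein. It was at 8.42 and 8.56 in Gr1hi cells without beads and at 8.51 and 8.59 with beads, and at 7.46 and 7.12 in Gr1lo cells without beads and at 7.36 and 7.39 with beads. The groups did not overlap, and the difference was -1.19 ± 0.08 (SE), or 2.28-fold (limma, adjusted p = 1.3e-05). Mrpl58, also known as Ict1, encodes a large subunit protein that is related to release factors and can free chains from stalled ribosomes. It was at 10.27 and 10.23, then 10.15 and 10.15 in Gr1hi cells without and with beads, and at 9.32 and 9.16, then 9.13 and 9.01 in Gr1lo cells. This was a fall of 2.06-fold (-1.04 ± 0.06, adjusted p = 5.8e-06, limma), again without overlap.

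Mrpl28, Mrpl19 and Mrpl27 of the large subunit came next. Mrpl28, a protein with a bacterial counterpart, was at 9.98 and 10.01 without beads and 9.92 and 9.88 with beads in Gr1hi cells, and at 9.10 and 8.98, then 9.004 and 8.85 in Gr1lo cells (-0.96 ± 0.06). Mrpl19 was at 9.27 and 9.32, then 9.16 and 9.25 in Gr1hi cells, and at 8.50 and 8.35, then 8.32 and 8.34 in Gr1lo cells (-0.87 ± 0.06). Mrpl27 was at 10.04 and 10.06, then 10.03 and 10.05 in Gr1hi cells, and at 9.25 and 9.21, then 9.29 and 9.20 in Gr1lo cells (-0.81 ± 0.06). In each of them the 4 Gr1hi arrays lay together, well above the 4 Gr1lo arrays. Among small subunit genes Mrps14, another protein of bacterial descent, came next after Mrps28, at 11.19 and 11.28, then 11.19 and 11.20 in Gr1hi cells and 10.56 and 10.55, then 10.37 and 10.33 in Gr1lo cells (-0.76 ± 0.06). Differences from -0.76 to -0.61 were measured for Mrpl48, Mrpl4, Mrps25, Mrps16, Mrpl41, Mrpl22, Mrpl42, Mrpl39, Mrpl11, Mrpl33, Mrpl45 and Mrpl51, and each had an adjusted p of 0.0014 or less in the limma fit.

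**Figure D3:**
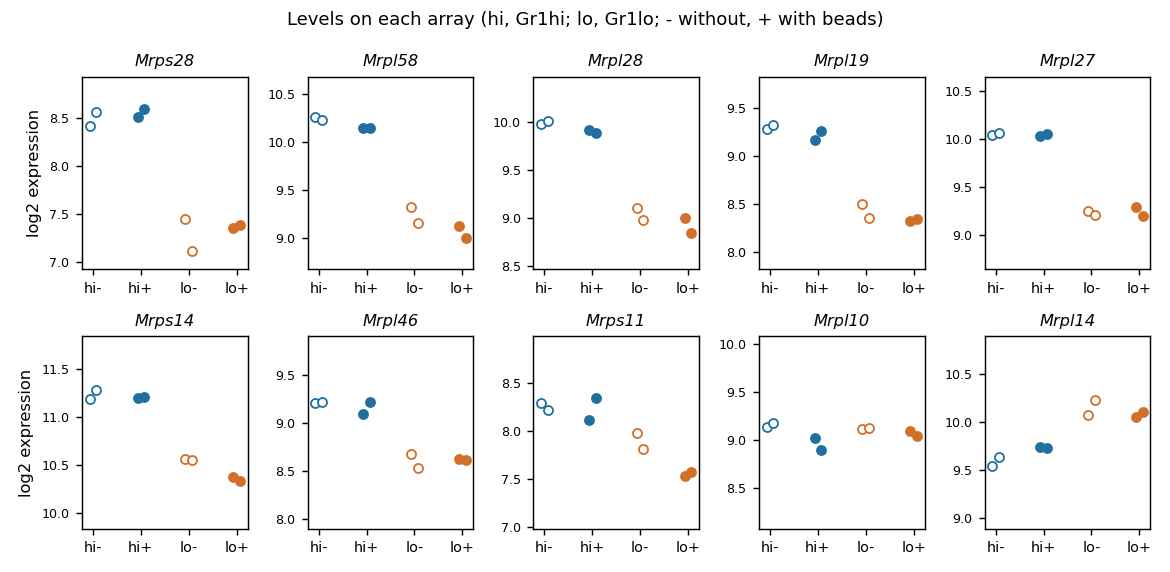
Expression in log2 units on each of the 8 arrays for 10 genes, in Gr1hi (blue) and Gr1lo (orange) monocytes without beads (open) and with beads (filled). Every panel spans the same range of log2 units around its own middle; in 8 panels the Gr1lo arrays lie below the Gr1hi arrays, in that of Mrpl10 they overlap, and in that of Mrpl14 they lie above.

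Mrpl14 went the other way. It encodes uL14m, a large subunit protein of bacterial descent that sits at the face where the subunits meet. It was at 9.55 and 9.64 in Gr1hi cells without beads and at 9.74 and 9.73 with beads, and at 10.07 and 10.23 in Gr1lo cells without beads and at 10.05 and 10.10 with beads. All Gr1lo arrays were above all Gr1hi arrays, and the difference was 0.45 ± 0.06 (SE), or 1.37-fold (limma, adjusted p = 0.00057). It was 0.56 without beads (adjusted p = 0.0024) and 0.34 with beads (adjusted p = 0.021). With any of the 4 bead arrays left out in turn the call with beads was lost (adjusted p = 0.057 to 0.098, limma), while that averaged over bead state was kept. The array has 1 probe set for it.

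Sequence before the start sites of some of these genes is shown to set Mrpl14 beside genes that fell, and because transcription factors of the ETS family, NRF1 and YY1 are known for binding promoters of nuclear genes for mitochondrial proteins. The stretches are the 150 bases upstream of the start of each gene on the plus strand, from RefSeq (GRCm38.p6), at chr11:115403602-115403751 for Mrpl58, chr11:94653641-94653790 for Mrpl27, chr17:26123353-26123502 for Mrpl28, chr7:78782981-78783130 for Mrps11 and chr17:45686199-45686348 for Mrpl14. Capitals mark an ETS core (CCGGAAG), an NRF1 element (GCGC and TGCGC with any base between them) or a YY1-type sequence (ATGGCGGC), on either strand.
Mrpl58: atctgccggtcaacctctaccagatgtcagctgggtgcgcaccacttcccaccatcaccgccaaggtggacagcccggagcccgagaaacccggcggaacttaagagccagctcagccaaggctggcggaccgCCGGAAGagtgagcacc
Mrpl27: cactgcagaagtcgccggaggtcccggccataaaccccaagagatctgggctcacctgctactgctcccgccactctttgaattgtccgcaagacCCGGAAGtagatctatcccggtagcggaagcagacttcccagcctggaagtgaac
Mrpl28: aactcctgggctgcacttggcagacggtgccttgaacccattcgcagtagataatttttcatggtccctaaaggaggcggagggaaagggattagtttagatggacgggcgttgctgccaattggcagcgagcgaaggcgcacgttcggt
Mrps11: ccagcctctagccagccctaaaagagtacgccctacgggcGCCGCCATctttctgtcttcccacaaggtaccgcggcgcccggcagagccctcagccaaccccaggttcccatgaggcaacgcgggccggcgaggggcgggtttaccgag
Mrpl14: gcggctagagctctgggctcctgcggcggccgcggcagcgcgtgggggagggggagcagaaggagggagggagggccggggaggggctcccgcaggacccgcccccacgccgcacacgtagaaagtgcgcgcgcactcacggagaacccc
Mrpl58 and Mrpl27 hold an ETS core in these stretches, and Mrps11 a YY1-type sequence. Neither Mrpl28, among the genes that fell most, nor Mrpl14 holds any of the marked sequences in these stretches. At or past the start, in the part not printed, Mrpl14 holds an NRF1 element, Mrpl27 a YY1-type sequence and Mrpl58 a further ETS core that spans the start.

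Promoter windows of 300 bases, from 250 before to 50 after a start, were found for 67 of the 76 genes, in 73 windows. The ETS core was in 34.2% of them, against 19.2% of windows of genes above background and 8.86% of all 32851 windows. The NRF1 element was in 16.4%, against 10.8% and 4.6%. The YY1-type sequence was in 15.1%, against 5.22% and 2.24%. A GC box (GGGCGG) was in 53.4%, against 63.0% and 35.7%, and an E box (CACGTG) in 9.59%, against 10.5% and 7.15%. Searches covered both strands, and a match does not show that a factor binds. Among the genes themselves, the ETS core was in 36.2% of 58 windows of genes that fell and in 26.7% of 15 windows of the others. The same shares were 17.2% and 13.3% for the NRF1 element and 15.5% and 13.3% for the YY1-type sequence. They were 51.7% and 60.0% for the GC box and 12.1% and 0.0% for the E box. No test was made between these windows. GC content had a median of 58.7% in the windows of the ribosomal genes and 61.0% in those of genes above background.

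Many of these genes start back to back with another gene on the opposite strand. A neighbour starting within 500 bases was found for 22 of the 67 genes, or 32.8%, against 18.4% of genes above background. Mrpl46 and Mrps11 form such a pair with each other, 42 bases apart, and fell alike. Mrpl46 was at 9.21 and 9.22, then 9.09 and 9.21 in Gr1hi cells and 8.68 and 8.54, then 8.63 and 8.61 in Gr1lo cells (-0.57 ± 0.06). Mrps11 was at 8.28 and 8.22, then 8.11 and 8.34 in Gr1hi cells and 7.97 and 7.81, then 7.53 and 7.57 in Gr1lo cells (-0.52 ± 0.07). Mrpl47, whose neighbour Ndufb5 encodes a subunit of complex I, differed by -0.52 ± 0.06 and Ndufb5 by -0.83 ± 0.06. Of the 7 neighbours above background of genes that fell that are not mitochondrial ribosomal genes themselves, 4 were called lower and none higher, against 30.7% and 25.5% of genes above background. They were Ndufb5, Klc4, a kinesin light chain (-0.61), Psma2, a proteasome subunit (-0.38), and Tcp1, a chaperonin subunit (-0.30). The rest of the 7 were not called: Gga3 (0.14) beside Mrps7, Twnk (-0.04) beside Mrpl43 and Ighmbp2 (-0.03) beside Mrpl21. Tmem63b, which starts 131 bases from Mrpl14, differed by 0.13 ± 0.07 and was not called (adjusted p = 0.17, limma).

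The genes were also grouped by place in the ribosome, in sites of 3 to 5 genes, to be read against the 60 of 76 that fell and the 30.7% of genes above background called lower. Of the proteins around the peptidyl transferase centre, where peptide bonds form, all 4 fell: Mrpl4 by 0.76, Mrpl2 by 0.54, Mrpl3 by 0.45 and Mrpl16 by 0.32 log2 units. Around the exit tunnel 3 of 4 fell, Mrpl22 by 0.67, Mrpl45 by 0.61 and Mrpl23 by 0.49, whereas Mrpl24 had a difference of 0.13 ± 0.06 (adjusted p = 0.17, limma). Mrpl24 was at 10.56 and 10.43, then 10.51 and 10.36 in Gr1hi cells and 10.55 and 10.57, then 10.64 and 10.60 in Gr1lo cells, with overlap. In the stalk that recruits translation factors 3 of 4 fell, Mrpl11 by 0.61, Mrpl54 by 0.44 and Mrpl12 by 0.27.

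Mrpl10, which anchors the stalk, was the fourth. It was at 9.14 and 9.18, then 9.02 and 8.90 in Gr1hi cells and 9.12 and 9.13, then 9.10 and 9.05 in Gr1lo cells. The groups overlapped, and the difference was 0.04 with a 95% interval from -0.10 to 0.17. In the central protuberance, the crown of the large subunit, Mrpl48 (-0.76), Mrpl46 (-0.57) and Mrpl18 (-0.22) fell, and Mrpl38 (-0.22, adjusted p = 0.070) and Mrpl40 (0.01, adjusted p = 0.90) were not called in the limma fit.

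In the small subunit all 3 proteins near the decoding site and messenger path fell, Mrps7 by 0.59, Mrps5 by 0.38 and Mrps12 by 0.31. Of the 3 paralogues of bacterial S18, Mrps18c fell by 0.41 and Mrps18a by 0.37, and Mrps18b had a difference of -0.11 ± 0.07 (adjusted p = 0.26, limma). Mrps18a belongs to the large subunit in mammalian structures despite its symbol, as does Mrps30, which had a difference of -0.08 ± 0.07 and was not called. Mrps36, now assigned to a dehydrogenase complex rather than the ribosome, fell by 0.34.

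Genes with a counterpart in the bacterial ribosome and genes without one were both mostly lower. Over all genes 20.9% were called lower and 14.8% higher, and over genes above background 30.7% and 25.5%. Of the genes with a bacterial counterpart, 24 of 28 large subunit genes fell (median -0.38), with Mrpl14 the one that rose, and 13 of 15 small subunit genes fell (median -0.47). Of the genes without such a counterpart, 13 of 18 large subunit genes (median -0.53) and 7 of 9 small subunit genes fell (median -0.34). The other 6 genes, Mrpl55, Mrps18a, Mrps18b, Mrps28, Mrps30 and Mrps36, were put in neither class, so the greatest fall, that of Mrps28, is in none of these counts. No test was made between these sets.

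The 15 genes that were not called in either direction were Mrpl1, Mrpl10, Mrpl24, Mrpl38, Mrpl40, Mrpl49, Mrpl52, Mrpl55, Mrpl57, Mrps6, Mrps17, Mrps18b, Mrps27, Mrps30 and Mrps31. Their differences ran from -0.22 in Mrpl38 to 0.21 in Mrps6. Mrps6 varied most, at 8.74 on the Gr1lo array without beads of replicate 1 and 7.87 on its partner, against 7.88 to 8.06 on the Gr1hi arrays. Its difference of 0.21 ± 0.18 was -0.003 without that array. Some lay close to background, Mrps27 with a mean of 7.02 and Mrpl49 with 7.33, whereas Mrpl52 had a mean of 10.78 and overlapped between the subsets. Among the genes that fell, Mrps5 had a mean of 7.34 and a difference of -0.38. The part of the signal level in these calls was not tested.

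Other probe sets of the same genes gave a second reading. Of the 76 genes, 42 had more than 1 probe set, and of 156 probe sets 112 were above background. For 20 genes that fell there were 31 further probe sets above background, of which 29 were below 0, with a median of -0.39 against -0.46 for the brightest ones. The 38 dim further probe sets of genes that fell had a median of -0.04, and 21 were below 0. The 3 probe sets of Mrpl28, all above background, gave -0.96, -0.54 and -0.87. The second probe set of Mrpl58 was below background and gave -0.07, so that gene rests on 1 probe set, as do Mrps28 and Mrpl14.

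The difference between the subsets was measured separately in cells without and with beads. Without beads 49 genes were called lower and 1 higher, where 20.9% and 18.2% of genes above background were called. With beads 58 were called lower and 1 higher, where 24.3% and 20.5% were. In both states the gene called higher was Mrpl14. All 50 genes called without beads were called the same way with beads, which is 84.7% of the 59 called there. Among genes above background the matching shares were 85.8% of those called without and 74.9% of those called with beads, and 33.6% of all of them were called the same way in both states. The sign was the same in 74 of 76 genes, and in 7499 of 8788 genes above background. The large subunit median was -0.35 without and -0.49 with beads, and the small subunit median -0.37 and -0.36. Leaving out the Gr1lo array without beads of replicate 1, the large subunit median without beads was -0.42. The large subunit median of the difference between bead effects then went from -0.075 to -0.0075. Pearson's r between both states was 0.90 and Spearman's rho 0.88 over the 76 genes, which share arrays and normalization, against 0.93 and 0.90 over genes above background.

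The count without beads rests on few arrays. It was 30 without the Gr1hi array without beads of replicate 1, 29 without that of replicate 2, 29 without the Gr1lo array without beads of replicate 2, and 44 without that of replicate 1. It was 32 when each array was centred on its median.

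**Figure D4:**
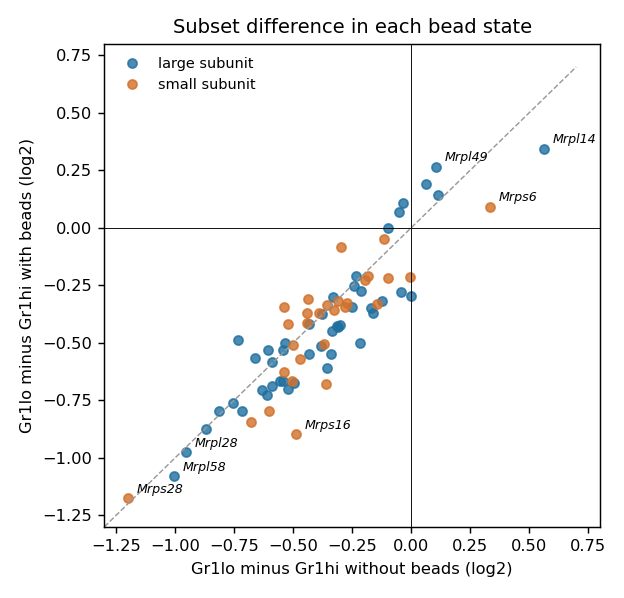
Difference between Gr1lo and Gr1hi monocytes in log2 units, without beads (horizontal axis) and with beads (vertical axis), for 76 genes; the dashed line marks equal values. Most points lie in the lower left near the line, from -1.20 and -1.18 for Mrps28, with Mrpl14 at 0.56 and 0.34, and Mrps16 lies below the line at -0.49 and -0.90.

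Bead carriage was not accompanied by a called change in any of these genes. In Gr1hi cells with against without beads 0 of 76 were called at an adjusted p under 0.05 (limma; 0.247% of all genes were), and 2 had an unadjusted p under 0.05, against 9.93% of all genes and 12.5% of genes above background. In Gr1lo cells 0 were called (0.225% of all genes), and 10 had an unadjusted p under 0.05, against 13.2% and 15.7%. Averaged over the subsets 0 were called (0.764% of all genes), and 10 had an unadjusted p under 0.05, against 15.3% and 20.0%. The median difference was -0.02 for the large and -0.04 for the small subunit genes in Gr1hi cells, and -0.05 and -0.09 in Gr1lo cells, against -0.04 and -0.03 for genes above background. In Gr1hi cells the bead difference was below 0 in 50 of 76 genes, against 54.5% of all genes and 61.0% of genes above background. In Gr1lo cells it was below 0 in 53, against 44.3% and 58.6%. Averaged over the subsets it was below 0 in 54, against 48.1% and 62.3%. The interval of the difference bounds what was missed: averaged over the subsets the 95% interval lay within 0.5 log2 units of 0 for 75 of 76 genes, in Gr1hi cells for 73 and in Gr1lo cells for 68. With the replicate number as a block within each subset, it did for 76, 74 and 72 genes, and again 0 were called. The bound of 0.5 is wider than the median subset difference of -0.40. In the averaged subset comparison without a block, 28 of 76 genes also had an interval within it. An interval within this bound therefore does not show that a bead difference as large as that median was absent.

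**Figure D5:**
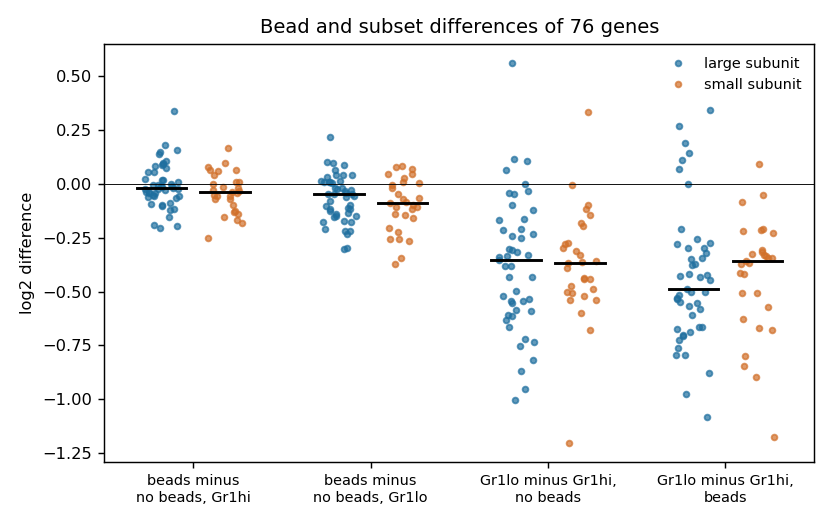
Log2 differences of the 76 genes with against without beads in each subset, and in Gr1lo against Gr1hi cells in each bead state. Each point is a gene, blue for the large and orange for the small subunit, and black bars are medians; the bead medians lie between -0.02 and -0.09, and the subset medians between -0.35 and -0.49.

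In Gr1hi cells the gene with the smallest p was Mrpl52, a large subunit protein without a counterpart in the bacterial ribosome. It was at 10.62 and 10.75 without and 11.09 and 10.96 with beads, a difference of 0.34 ± 0.09 (limma, adjusted p = 0.26), and at 10.71 and 10.66, then 10.74 and 10.71 in Gr1lo cells. Its bead arrays lay above in Gr1hi cells by more than the spread between replicates, but not past the correction over all genes. In Gr1lo cells the smallest p was that of Mrps16, a small subunit protein of bacterial descent, at 9.81 and 9.73 without and 9.37 and 9.43 with beads (-0.37 ± 0.09, adjusted p = 0.16, limma). In Gr1hi cells Mrps16 was at 10.26 and 10.26, then 10.36 and 10.24. Mrpl33, a small protein of bacterial descent, had the smallest p averaged over the subsets, at 11.08 and 11.02, then 10.93 and 10.80 in Gr1hi cells and 10.51 and 10.48, then 10.27 and 10.12 in Gr1lo cells (-0.24 ± 0.06, adjusted p = 0.15, limma). Its bead arrays were the lower ones in both subsets.

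The difference between the bead effects of the 2 subsets was not called for any of the genes (limma; 0.044% of all genes were), and 2 had an unadjusted p under 0.05, Mrps16 and Mrpl52, against 7.84% of all genes and 7.94% of genes above background. For Mrps16 it was -0.41 ± 0.12 (adjusted p = 0.56), and for Mrpl52 -0.30 ± 0.13 (adjusted p = 0.63). The 95% interval of this difference lay within 0.5 log2 units of 0 for 62 of 76 genes, so larger differences between the subsets' bead effects are not bounded for the others.

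Other proteins of the mitochondrial ribosome that lack an Mrp symbol were mostly lower as well, where 30.7% of genes above background were called lower and 25.5% higher. Of 4 measured, 3 were lower in Gr1lo cells: Dap3, a small subunit GTP-binding protein (-0.69 ± 0.07), Gadd45gip1, a large subunit protein (-0.41 ± 0.06), and Chchd1, a small subunit protein (-0.37 ± 0.06). Ptcd3, a small subunit protein, differed by -0.14 ± 0.07 and was not called. Of 14 factors of mitochondrial translation and RNA handling, 8 fell and 1 rose, with a median of -0.30, against the same shares. Slirp (-0.73 ± 0.06) and Lrpprc (-0.58 ± 0.06), which together stabilise mitochondrial messengers, fell, as did the elongation factor Tsfm (-0.50 ± 0.06) and the recycling factor Mrrf (-0.48 ± 0.06). The factor that rose was the initiation factor Mtif3 (0.19 ± 0.06).

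Of 32 proteins that assemble the ribosome, 10 fell and 5 rose, with a median of -0.06, which is near the shares over all genes (20.9% lower and 14.8% higher; 30.7% and 25.5% above background). C1qbp (-1.11 ± 0.07) and Noa1 (-0.98 ± 0.09), both needed for mitochondrial translation, fell, as did Rbfa (-0.41 ± 0.06), which acts on the small subunit's RNA, and Ngrn (0.60 ± 0.08), which acts on the large subunit's RNA, rose. Of 21 tRNA synthetases and amidotransferase subunits of mitochondria, 13 of them above background, 8 fell and none rose (median -0.16), among them Iars2 (-0.75 ± 0.06) and Fars2 (-0.85 ± 0.09). For the synthetases this stands against 20.9% of all genes and 30.7% of genes above background called lower. Of 9 genes of mitochondrial transcription and replication, 1 fell and 2 rose, where 30.7% and 25.5% of genes above background did. The one that fell was the single-strand binding protein Ssbp1 (-0.49 ± 0.06), and those that rose were Mterf1a (0.68 ± 0.07) and Polg (0.33 ± 0.10). Tfam, which packs mitochondrial DNA, differed by 0.02 ± 0.06.

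Of 13 nuclear regulators of mitochondrial genes, 3 rose and 1 fell, where 14.8% and 20.9% of all genes did, so the count of rises is near that over genes above background (25.5%). Gabpb2, a partner of the ETS factor Gabpa, rose by 0.60 ± 0.07, Esrra, a nuclear receptor, by 0.57 ± 0.06 and Nrf1 by 0.49 ± 0.10, all in Gr1lo cells, and the coactivator Ppargc1b fell by 0.25 ± 0.08. Gabpa itself differed by 0.14 ± 0.07 and Yy1 by -0.15 ± 0.06, and neither was called. For comparison, 65 of 74 nuclear genes of oxidative phosphorylation fell and 1 rose (median -0.55), and 19 of 42 cytosolic ribosomal protein genes fell and 2 rose (median -0.15), against 30.7% of genes above background called lower and 25.5% higher. No gene of these lists was called with beads in either subset.

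Markers of other cells moved with the subsets too. Of genes above background, 30.7% were called lower and 25.5% higher averaged over bead state, and 20.9% and 18.2% without beads. All 9 neutrophil markers were lower in Gr1lo cells, 5 of them above background, and their summed level was 14.18 to 14.31 in Gr1hi cells without beads, 13.52 to 13.66 with beads, 9.73 to 10.26 in Gr1lo cells without beads and 9.78 to 10.04 with beads. Several of these, such as S100a8, are also made by classical monocytes. Of 4 cell cycle markers 3 were lower in Gr1lo cells, with differences of -2.30 for Mki67, -2.20 for Birc5, whose mean is below background, and -0.71 for Cdk1. Their summed level was 9.70 to 9.77 and 10.02 to 10.22 in Gr1hi cells without and with beads, and 8.01 to 9.26 and 8.16 to 8.45 in Gr1lo cells. Of 5 dendritic cell markers 1, Cd209a, was higher in Gr1lo than in Gr1hi cells without beads (3.49), the other differences ran from -0.18 to -0.05, and 2 of the 5 were above background. With against without beads in Gr1lo cells, 1 of the 5 was called lower, where 0.143% of all genes were, and the lowest difference was -3.13. Of 6 B cell, 5 T cell and 6 NK cell markers, 1 in each list was above background. Averaged over bead state 1 in each list was called higher in Gr1lo cells, and 2 T cell markers were called lower. With beads, 1 NK cell marker was called lower in Gr1lo cells and 1 T cell marker higher in Gr1hi cells. The part of these cells or states in the ribosomal difference was not tested.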

How the data were processed

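Sorted blood monocytes of 4 groups were measured on 8 arrays. The log2 expression values the authors deposited, for 45101 probe sets, were used as they stood. They came from RMA and were compared by limma, per the submitters' processing notes. RMA subtracts background and gives every array the same distribution, so absolute amounts of RNA are lost and values near background are compressed. The sources used here give no versions of these tools. Of the probe sets, 34945 carried 1 gene symbol; those with several (932), none (9160) and controls (64) were left out of the tests. Through 34741 Entrez matches to RefSeq (GRCm38.p6), 0 symbols changed. Background was the 95th percentile of the means of 114 olfactory, vomeronasal, taste receptor and keratin-associated genes.

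All genes were fitted together in limma 3.58.1 (R 4.3.3) as 4 group means, with eBayes (prior degrees of freedom 4.48, residual 4), two-sided tests and Benjamini-Hochberg correction over 18193 genes. SE is the moderated standard error. With 2 arrays a group, their number limits the precision. The fit was tested on simulated data. Python 3.11.15, pandas 2.3.3 and matplotlib 3.10.9 made the tables and figures.

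Genes are named if called (at most 30 by p), among the 3 largest rises or falls by moderated t per comparison and subunit, among the 3 highest or lowest means, by place in the ribosome, or as up to 4 examples of a list with the smallest p. The genes not called, the neighbouring genes, Gabpa, Yy1, Tfam, Mtif3 and Ptcd3 were added after their values were seen. The genes, lists and comparisons were chosen with earlier results of these data known. Alternatives changed the probe sets of a gene (their mean, or each tested), left out dim genes, fitted the compared groups alone, used robust eBayes with a trend or weights per array, rescaled by cyclic loess or by median centring, blocked on the replicate number, moved Mrps18a and Mrps30 to the large subunit without Mrps36, and dropped each array. A block within each subset and a choice without _s_at and _x_at probe sets were added after seeing the data.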

Additional observations from a re-analysis of the deposited data

Results flagged for a closer look

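In 3 genes every bead array moved up against the arrays without beads in Gr1hi cells and down in Gr1lo cells, and the difference between these effects did not pass limma's test. In Mrpl43, a large subunit protein without a counterpart in the bacterial ribosome, the bead difference was 0.11 in Gr1hi and -0.15 in Gr1lo cells. The difference between them was -0.25 ± 0.12 (SE, adjusted p = 0.65, limma). In Mrpl54, a stalk protein, the values were 0.18, -0.03 and -0.21 ± 0.12 (adjusted p = 0.70, limma). In Mrps24, of the small subunit, they were 0.08, -0.11 and -0.19 ± 0.11 (adjusted p = 0.72, limma). Arrays moved in opposite directions in this way, either way round, in 3.95% of the 76 genes and in 6.27% of all genes.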

How the results depend on the processing

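No bead comparison had a called gene under any alternative, and the subset medians stayed below 0 under all of them. Called lower without beads, 49 genes, went to 32 with centring on the median and to between 29 and 46 with 1 array left out; averaged over bead state, 60 genes, it was 91 probe sets when every probe set was tested and 57 to 60 with 1 array left out. Called higher, 1 gene in each subset comparison, was 3 probe sets without beads, 3 with beads and 4 averaged when every probe set was tested. Averaged, these were that of Mrpl14 and probe sets below background of Mrpl13, Mrpl15 and Mrps21 (means 5.02, 6.70 and 5.82). The brightest probe sets of Mrpl13, Mrpl15 and Mrps21 fell. With genes above background alone the count of genes called higher was 2 with beads and 2 averaged. With centring it was 2 and 4, as Mrpl24, Mrpl49 and Mrpl55 joined Mrpl14 in the average. For Mrpl49 the second probe set, at a mean of 7.25, gave -0.09 without centring, against 0.19 for the brightest. With cyclic loess the count called higher was 2 averaged. With 1 array left out it was 1 to 2 without beads, 0 to 1 with beads and 1 to 3 averaged. The large subunit median was -0.29, -0.26 and -0.26 without beads (main -0.35), -0.32, -0.42 and -0.33 with beads (main -0.49) and -0.29, -0.35 and -0.28 averaged (main -0.42), with the mean of probe sets, centring and every probe set; without beads it ran from -0.42 to -0.33 with 1 array left out. The small subunit median was -0.27 with centring without beads, and -0.31, -0.30 and -0.31 averaged (main -0.38). For the difference of bead effects the large subunit median of -0.075 became 0.011 with the mean of probe sets and -0.0063 with every probe set, and -0.12 to -0.0075 with 1 array left out; the small subunit median ran from -0.10 to 0.014. Centring moves the median of all genes by 0.08, from -0.05 to 0.03, in the averaged comparison. Other causes of these shifts were not tested.

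Genes that were not called changed sign: with the mean of probe sets Mrpl13 (beads in Gr1lo -0.11, average -0.048); with centring Mrps18b without beads (0.092) and Mrps30 with beads (0.013); with cyclic loess Mrps18b without beads (0.026); and, over the arrays left out 1 at a time, Mrps30 with beads (-0.14 to 0.039), Mrps18b without beads (-0.086 to 0.079), Mrps27 with beads (-0.18 to 0.015), Mrps6 with beads (-0.11 to 0.29), without (-0.098 to 0.77) and averaged (-0.0027 to 0.43), Mrps18a (beads in Gr1lo -0.032 to 0.18), and Mrps28 (beads in Gr1lo -0.081 to 0.25, bead average -0.011 to 0.16). Same-numbered arrays deviated together within a subset (r = 0.60 in Gr1hi and 0.37 in Gr1lo cells) but not across subsets (0.036 to 0.090), and no label says that a number marks shared animals or a shared day. With 2 pairs a subset, pairing within a subset is a hint from the data, so the fits without a block stand first and the block fits are given beside them. With the replicate number as a block 51, 58 and 61 genes were called lower without beads, with beads and averaged, and 1 higher in each; with a block within each subset, added after seeing the data, 53, 59 and 63 were called lower, and 1, 2 and 2 higher.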

Other observations

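The 5 other genes above background whose 8 array values followed the median of the 76 genes most closely, among 8712, were Trem2, a lipid-sensing receptor of phagocytes (Pearson's r = 0.9992), Tmed10, a cargo receptor of the early secretory pathway (0.9985), Aprt, a purine salvage enzyme (0.9984), Gsn, an actin-severing protein (0.9983), and Ufc1, an enzyme of ufmylation (0.9981). All were lower in Gr1lo cells, with differences of -2.14 for Gsn, -1.83 for Aprt, -1.72 for Trem2, -0.81 for Ufc1 and -0.77 for Tmed10. The correlations run over 8 arrays in 2 separate clusters, the subsets, which share normalization, and are given as a description.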
